A study of Homo sapiens with 9 samples.

Results

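The genes described here are the well-expressed members of the ZNF series, human zinc finger genes whose symbol is ZNF followed by a number and at most 1 letter. Members were selected on level alone: the estimated read count, averaged over all 9 libraries, had to be at least 150. This gave 137 of the 448 ZNF genes in the table, or 0.837% of its 16366 genes. All 137 passed the filter on low counts, which does not use differences between groups. The cut divided genes of nearly equal level: ZNF483 (mean count 153) and ZNF473 (151) were just inside, and ZNF74 (148) and ZNF608 (143) just outside.

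Most ZNF proteins carry C2H2 zinc fingers, short loops in which 2 cysteines and 2 histidines hold a zinc ion and the loop contacts DNA. In many of them a KRAB box at the start of the protein binds TRIM28 (KAP1), which brings in the methyltransferase SETDB1 and heterochromatin proteins to silence the bound site, often a retroelement. Genes of this KRAB class lie in arrays of related copies, above all on chromosome 19. Other ZNF genes received the name from a finger alone and act in mitosis, splicing, ribosome quality control or the cytoskeleton.

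RNA was sequenced from Cal-27, an established human line of tongue squamous carcinoma cells labelled wild type. Co-culture with exosomes lasted 48 h. Exosomes are small vesicles that cells release. The 3 groups of 3 libraries were cells given exosomes of cancer-associated fibroblasts (CAF exosomes), cells given hOMF exosomes (the abbreviation is not spelled out in the labels) and a control group whose handling the labels do not describe further. All 9 libraries come from this 1 line, and the labels do not say that replicates were separate cultures. The p-values therefore cover the spread among these samples alone, and that spread may be technical.

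Library totals ran from 11185672 to 12779101 estimated counts. Levels in a library are given as CPM (counts scaled to library size with TMM factors) or, to compare genes, as the authors' TPM, which also divides by transcript length. Changes are log2 fold changes and their standard error (SE). They come from the quasi-likelihood test of edgeR across 12470 genes, with calls at an adjusted p (Benjamini-Hochberg) under 0.05. All 9 squamous markers listed were present. The keratin genes KRT5 and KRT14 were called higher in both comparisons with control (log2 change 0.72 and 1.14 with CAF exosomes, 0.51 and 0.57 with hOMF exosomes), and KRT6A with CAF exosomes (0.56). Of 11 fibroblast markers 4 passed the filter on low counts. Their log2 changes were above 0 in both comparisons, and LUM, a matrix proteoglycan gene, was called higher (1.45 CPM in the controls, 3.03 with CAF and 2.78 with hOMF exosomes). COL1A1, a collagen gene, averaged 37.2, 43.3 and 43.3 CPM and was not called, and COL3A1, DCN, FAP, THY1 and POSTN averaged at most 0.0604 CPM in every group. Of 3 endothelial markers, CDH5 alone was called, lower in both (24.0 CPM in the controls, 14.9 and 15.2 with exosomes). The others went in opposite directions, PECAM1 at -1.07 and -0.62 and VWF at 0.73 and 0.70 with CAF and hOMF exosomes. Control replicate 3 stood apart, at -29.8 on the first principal component against -18.8 and -21.3 for the other controls. It held VIM, a filament gene of mesenchymal and blood cells, at 38.1 CPM and PTPRC, a leukocyte gene, at 7.50 CPM, against at most 0.632 and 0.0909 CPM in the other 8 libraries. The summed leukocyte markers were 16.3 CPM in control replicate 3, 4.0 and 6.78 in the other controls and 6.19 to 7.89 with exosomes. The summed fibroblast markers were 76.2 CPM there, 44.1 and 44.5 in the other controls and 46.5 to 57.6 with exosomes. VIM is on this list and its 38.1 CPM is part of the 76.2. COL1A1 was not raised in control replicate 3, at 33.2 CPM against 39.4 and 39.0 in the other controls. The part of these markers in the results below was not tested.

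The ZNF genes took between 0.496% and 0.531% of the counts of a library. Their mean TPM ranged from 2.07 for ZNF264 to 157 for ZNF385A, with a median of 11.4, near the median of 14.3 for all genes tested. ZNF385A, a partner of p53 that also binds RNA, led at 157 TPM. ZNF358 followed at 138 TPM. ZNF207, known as BuGZ, which binds spindle microtubules and the checkpoint protein BUB3, came next at 107 TPM. ZNF593, a nucleolar protein of ribosome assembly, reached 94.3 TPM, and ZNF580 reached 85.5 TPM. None of these 5 genes has a KRAB box. Across replicates of a group the median SD of log2 CPM was 0.127 for the ZNF genes and 0.107 for the 8746 genes that reached the same mean count.

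**Figure D1:**
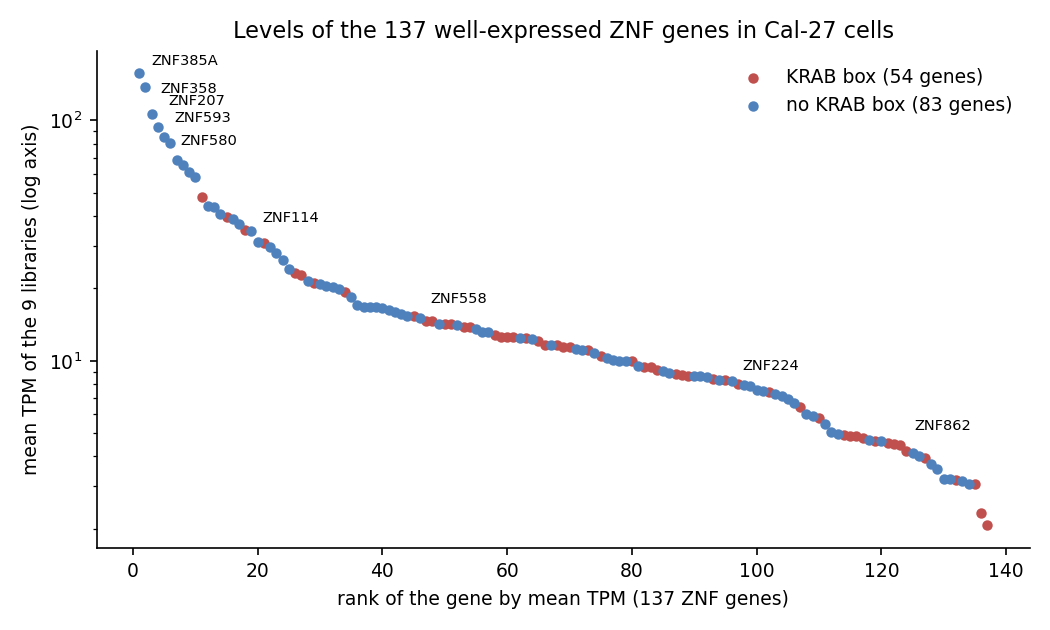
Mean TPM of the 9 libraries (log axis) for each of the 137 ZNF genes, ordered by rank, with 1 point per gene coloured by the presence of a KRAB box. The 5 highest genes lie between 85.5 and 157 TPM and have no KRAB box, and ZNF114 lies at 35 TPM.

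A search of GENCODE 29 coding sequences with a KRAB profile found a KRAB box in 54 of the 137 genes and none in 83. The longest coding sequence held a median of 8 C2H2 fingers (range 0 to 33), 9 in the KRAB class and 7 in the rest. Chromosome 19 held 38 of the 137 genes, 23 of them with a KRAB box. The KRAB class had a median level of 10.2 TPM and the others 13.2 TPM. RSEM, the authors' counting program, shares ambiguous reads between similar genes. Only 33 of the 54 KRAB genes had whole counts in all 9 libraries, against 77 of the 83 others, so counts of the remaining KRAB genes include shared reads and are less certain.

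With CAF exosomes, 24 of the 137 ZNF genes were higher than in control cells and 5 were lower. The 29 called genes are 21.2% of the set, and 18.2% of all genes tested were called. By direction, 17.5% of the ZNF genes were higher and 3.65% lower, where 9.51% and 8.64% of all genes were. Of the 8746 genes that reached the same mean count, 9.70% were higher and 10.6% lower. The median log2 change was 0.03 over the ZNF genes and -0.01 over all genes. In 49 ZNF genes (35.8%) every CAF library lay on the same side of every control library, a share close to the 36.2% of all genes tested. In bulk RNA, fewer cells of a type and less RNA per cell cannot be told apart.

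With hOMF exosomes, set against the same 3 controls, 21 ZNF genes were higher and 10 lower. The 31 called genes are 22.6% of the set, close to the 23.2% of all genes that were called. The higher share was 15.3% against 11.8% of all genes, and the lower share 7.30% against 11.4%. Of the 8746 genes at the same mean count, 11.5% were higher and 13.9% lower. The median log2 change was 0.05 over the ZNF genes and 0.00 over all genes, and 50 ZNF genes (36.5%) had groups that did not overlap, against 39.5% of all genes. Because both comparisons use the same 3 controls, a gene called in both has not been seen changed in separate controls. Side by side, 18 genes were higher and 4 lower in both, 7 were called with CAF and not hOMF exosomes, 9 with hOMF and not CAF exosomes, and 99 in neither. The 99 had log2 changes from -0.36 to 0.32 with CAF exosomes and from -0.37 to 0.30 with hOMF exosomes. Apart from ZNF114, described below, 0 of the 137 genes passed the direct test between the exosome groups.

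These counts lean on single libraries. Without control replicate 3, 6 ZNF genes were higher and 4 lower with CAF exosomes, and 9 were higher and 5 lower with hOMF exosomes. Over all genes the calls fell from 1186 higher and 1078 lower to 742 and 700 with CAF exosomes. With hOMF exosomes they fell from 1475 and 1421 to 997 and 1017. By share, higher ZNF genes were then no longer more frequent than higher genes among all genes tested, in either comparison. With CAF exosomes 8 ZNF genes were higher without CAF replicate 1, 12 without CAF replicate 3 and 12 without control replicate 2. With hOMF exosomes 8 were higher without hOMF replicate 2 and 13 without control replicate 2. Over all genes, leaving out 1 library gave 742 to 1290 higher with CAF exosomes and 884 to 1607 with hOMF exosomes. Corrected for GC content and length of the transcripts, the counts were 27 higher and 18 lower with CAF exosomes, and 20 higher and 21 lower with hOMF exosomes. Of the called ZNF genes 60% were then higher with CAF exosomes, against 82.8% in the main fit. With hOMF exosomes 48.8% were, against 67.7%. The calls over all genes under this correction are not listed here. Without TMM scaling the hOMF split was 27 higher and 6 lower. Without control replicate 3, 21 of the 29 calls with CAF exosomes and 17 of the 31 with hOMF exosomes were lost. The calls kept in all of 21 alternative fits were those of ZNF558, ZNF224, ZNF251, ZNF207 and ZNF646 in both comparisons, ZNF114 and ZNF496 with CAF exosomes, and ZNF862, ZNF875, ZNF277, ZNF12, ZNF574, ZNF526 and ZNF664 with hOMF exosomes.

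The higher genes were mostly of the KRAB class. With CAF exosomes 17 of the 54 KRAB genes were higher and 1, ZNF114, was lower, and of the 83 others 7 were higher and 4 lower. The higher shares were 31.5% in the KRAB class, 8.43% in the others and 9.51% over all genes. The lower shares were 1.85%, 4.82% and 8.64%. The median log2 change was 0.17 in the KRAB class and -0.05 in the others, and 41 of the 54 KRAB genes had a fold change above 0 against 36 of the 83 others. With hOMF exosomes 14 KRAB genes were higher and ZNF114 again was lower, while 7 of the others were higher and 9 lower. Here the higher shares were 25.9% in the KRAB class, 8.43% in the others and 11.8% over all genes. The lower shares were 1.85%, 10.8% and 11.4%. The median log2 changes of the KRAB class and the others were 0.17 and -0.04. These are descriptions of the 2 classes, and the difference between them was given no test.

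**Figure D2:**
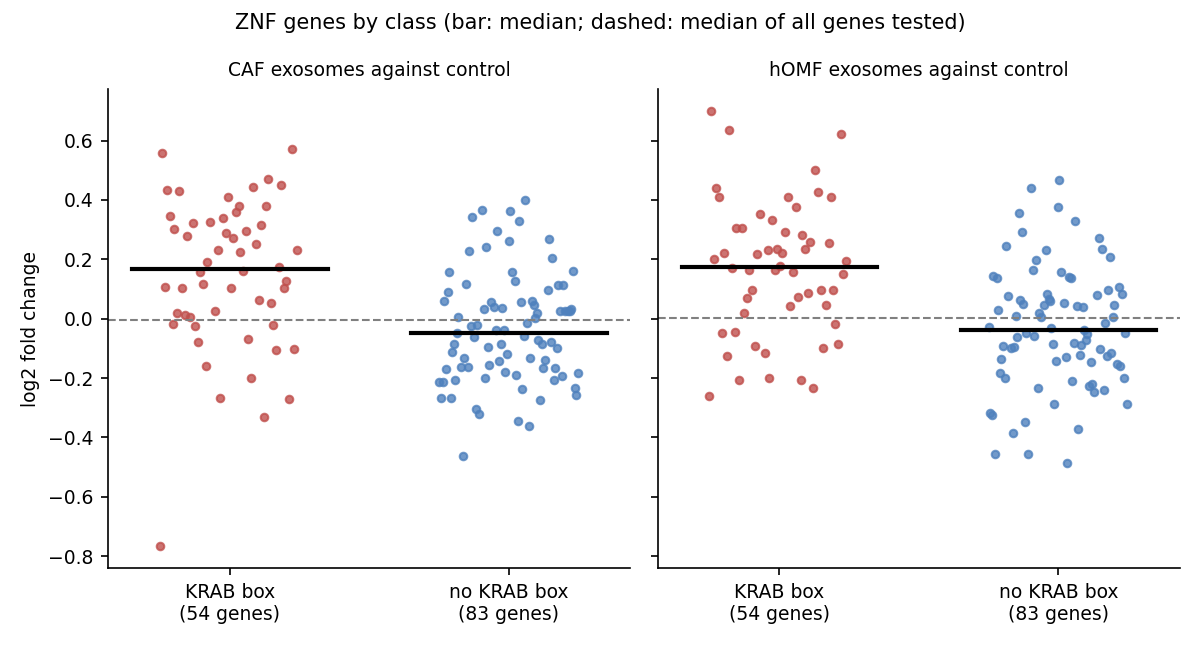
Log2 fold change of each of the 137 ZNF genes against control, 1 point per gene, split by KRAB box, with a bar at the class median and a dashed line at the median of all genes tested. The KRAB class has its median at 0.17 in both panels and the other genes at -0.05 and -0.04, and the lowest KRAB point with CAF exosomes is ZNF114 at -0.77.

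The split by KRAB box was also laid out library by library. These are the same counts, so they are no separate support for it. The median log2 deviation of the KRAB genes from their mean over the 9 libraries was -0.06, -0.13 and -0.19 in control replicates 1, 2 and 3. It was 0.07, 0.03 and 0.05 in the CAF libraries and 0.06, 0.09 and 0.03 in the hOMF libraries. All 3 controls were below all 6 exosome libraries, and control replicate 3 was the lowest. For the genes without a KRAB box the control values were 0.02, 0.05 and 0.04, and the exosome libraries ranged from -0.06 to 0.02. The groups overlapped there: CAF replicate 3 (0.0241) and hOMF replicate 2 (0.0203) were above control replicate 1 (0.0157). The median of all genes tested stayed between -0.00 and 0.01 in each library.

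**Figure D3:**
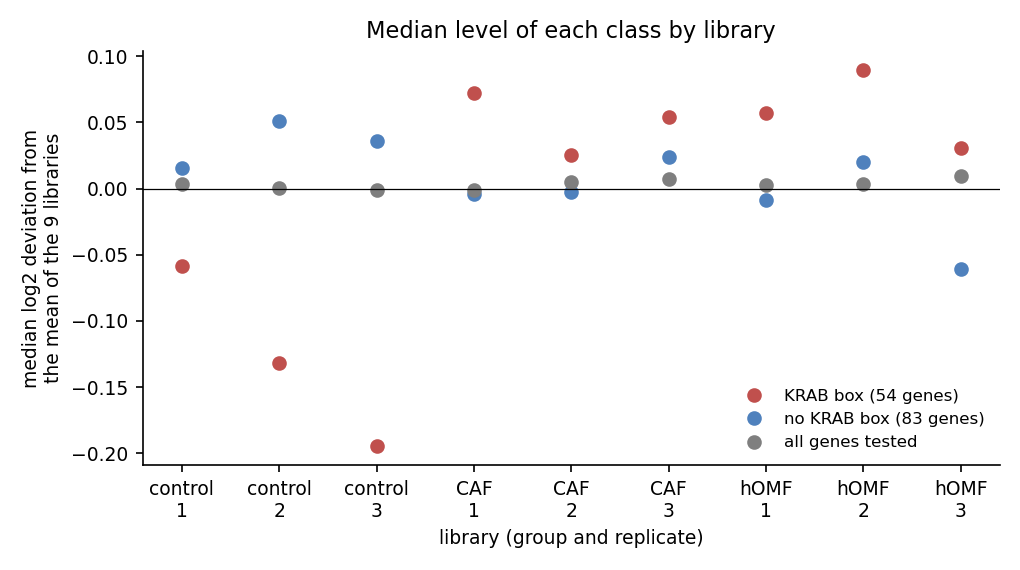
Median log2 deviation from the mean of the 9 libraries for KRAB genes, other ZNF genes and all genes tested, with 1 point per class and library. The KRAB points are below 0 in the 3 controls, lowest at -0.19 in control replicate 3, and between 0.03 and 0.09 in the 6 exosome libraries.

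The KRAB median stayed between 0.15 and 0.21 with CAF exosomes and between 0.15 and 0.23 with hOMF exosomes over 21 alternative fits. The median of the other ZNF genes ranged from -0.08 to 0.00 and from -0.06 to 0.02. Without control replicate 3 the KRAB medians were 0.15 and 0.15, but only 5 KRAB genes were called higher with CAF exosomes and 7 with hOMF exosomes. Over all genes 742 and 997 were then called higher. Among the 33 KRAB genes with whole counts in every library, 11 were higher and 0 lower with CAF exosomes (median 0.16), and 10 were higher and 0 lower with hOMF exosomes (median 0.18). These higher shares were 33.3% and 30.3%, against 9.51% and 11.8% of all genes.

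Position and base composition were also set beside the split. With CAF exosomes 7 of the 23 KRAB genes on chromosome 19 were higher (median 0.13), and 10 of the 31 elsewhere were higher (median 0.19). With hOMF exosomes these counts were 6 (median 0.16) and 8 (median 0.18). The group of 8 ZNF genes at chr19:55476332-56160893, all without a KRAB box, held 0 calls in either comparison, with log2 changes from -0.27 to 0.16. The next group toward the end of the chromosome, 9 KRAB genes at chr19:57191500-58481230, held 2 higher genes with CAF exosomes and 1 with hOMF exosomes. A group of 9 ZNF genes at chr19:7515292-9675086, 6 of them with a KRAB box, held 2 higher genes in each comparison. Over all genes 9.51% and 11.8% were higher, and these small groups were not tested against those shares. The median transcript GC content was 47.6% in the KRAB class, 52.0% in the other ZNF genes and 49.6% over all genes. When the 137 genes were split into 3 bins by GC content, the KRAB genes of the lowest bin had a median log2 change of 0.19 with CAF exosomes and 0.20 with hOMF exosomes. Those of the middle bin had 0.23 and 0.21, and the 11 in the highest bin -0.02 and -0.05, with 1 called higher. With the correction for GC content and length the KRAB medians were 0.16 and 0.15.

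Genes without a KRAB box but with a long finger array were also counted. Of the 26 such genes with 10 or more fingers, 1 was higher and 2 lower with CAF exosomes, and 1 was higher and 5 lower with hOMF exosomes, with a median of -0.07 in both. The higher share was 3.85% in both, against 8.43% of all 83 genes without a KRAB box. The lower shares were 7.69% and 19.2%, against 4.82% and 10.8% of those 83 genes, which include the 26. Of all genes tested, 9.51% and 11.8% were higher and 8.64% and 11.4% lower. The CAF lower share of the 26 was thus under that of all genes, and no difference in share was tested. The 202 tested ZNF genes under the count minimum were compared with the set. Of the 149 with a KRAB box, 12 were higher and 0 lower with CAF exosomes (median 0.13), and 12 were higher and 2 lower with hOMF exosomes (median 0.15). The 53 without one had 4 higher and 4 lower (median 0.02), and 4 higher and 3 lower (median 0.08). In both comparisons 8.05% of the 149 and 7.55% of the 53 were higher, against 9.51% and 11.8% of all genes. The lower shares of the 149 were 0% and 1.34%, against 8.64% and 11.4% of all genes. Calls of higher genes were thus not more frequent than over all genes in these 149.

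With hOMF exosomes the KRAB genes that rose furthest were ZNF558, ZNF224 and ZNF862. ZNF558, on chromosome 19 (chr19:8806170-8832328 in GRCh38), encodes a KRAB protein with 9 fingers. It read 25.9, 24.3 and 24.0 CPM in the controls, 39.1, 32.0 and 38.3 CPM with CAF exosomes, and 41.7, 39.4 and 39.4 CPM with hOMF exosomes. Every exosome library was above every control. The log2 change was 0.56 (SE 0.09, edgeR adjusted p = 0.000746) with CAF exosomes and 0.70 (SE 0.09, edgeR adjusted p = 8.2e-05) with hOMF exosomes.

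ZNF224 (chr19:44094339-44109886), an 18-finger KRAB repressor, read 19.1, 16.8 and 16 CPM in the controls. Its values were 28.0, 23.7 and 25.2 CPM with CAF exosomes and 26.5, 31.0 and 22.4 CPM with hOMF exosomes. The exosome libraries were all above the controls, with hOMF replicate 2 the highest. Its log2 changes were 0.57 (SE 0.12, edgeR adjusted p = 0.00472) and 0.62 (SE 0.12, edgeR adjusted p = 0.00179).

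ZNF862 (chr7:149838367-149867479) carries a KRAB box, and 0 C2H2 fingers were found in its coding sequence. It read 16.3, 15.1 and 13.2 CPM in the controls, 22.7, 17 and 20.3 CPM with CAF exosomes and 25, 22.2 and 21.9 CPM with hOMF exosomes. CAF replicate 2 was close to the highest control, and the hOMF libraries were clear of the controls. The log2 change was 0.43 (SE 0.12, edgeR adjusted p = 0.021) with CAF exosomes and 0.63 (SE 0.12, edgeR adjusted p = 0.00137) with hOMF exosomes. ZNF558, ZNF224 and ZNF862 each overlap exons of an antisense gene, and the strand setting of the authors' counting is not given, so part of these reads may belong to the opposite strand.

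ZNF251, a KRAB gene with 12 fingers, read 15.5, 15.4 and 15.2 CPM in the controls, 20.5, 19.5 and 19.9 with CAF exosomes and 21.9, 20.02 and 19.3 with hOMF exosomes. Its log2 changes were 0.38 and 0.41. Of the other KRAB genes, ZNF780A rose by 0.43 and 0.44, ZNF514 by 0.47 and 0.43, ZNF584 by 0.45 and 0.41 and ZNF875 by 0.38 and 0.50 with CAF and hOMF exosomes. ZNF789 (0.44) and ZNF587 (0.41) passed the test with CAF exosomes, and their hOMF values of 0.28 and 0.23 did not. ZNF587 had whole counts in 0 of the 9 libraries and overlaps exons of ZNF814 on the opposite strand, so its value is uncertain. ZNF436 passed in both, at 0.34 and 0.41, and its CAF and control libraries overlapped. The remaining higher KRAB genes, named after their values were seen, changed less. ZNF12 (0.30 and 0.38), ZNF496 (0.36 and 0.29), ZNF337 (0.33 and 0.35) and ZNF431 (0.34 and 0.33) passed in both comparisons. ZNF133 (0.32) and ZNF195 (0.29) passed with CAF exosomes, and ZNF655 (0.22) with hOMF exosomes.

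The RefSeq windows before the start sites of 5 called genes are shown to let the letters be read beside these values: 4 KRAB genes that rose and, last, ZNF207, which fell. They are examples and do not stand for the called genes as a whole, whose motif counts follow below. Each is 250 bases ending at the base before the first listed start site, 5′ to 3′ on the gene's strand (RefSeq table, GRCh38.p14). They lie at chr19:8832305-8832554 (minus strand), chr19:44094111-44094360, chr7:149838125-149838374, chr19:58408399-58408648 and chr17:32349907-32350156 (all plus strand). Capitals mark the letters CCGGAAG (the core bound by ETS factors), AAGATGG (the core bound by YY1) and ACTACANNTCCC (an element bound by ZNF143 and THAP11), on either strand.
ZNF558: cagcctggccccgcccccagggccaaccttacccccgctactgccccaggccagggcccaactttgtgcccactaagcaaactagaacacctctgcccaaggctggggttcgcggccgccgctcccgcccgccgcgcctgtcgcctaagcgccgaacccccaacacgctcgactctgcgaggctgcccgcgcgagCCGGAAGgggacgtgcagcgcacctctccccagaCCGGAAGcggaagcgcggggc
ZNF224: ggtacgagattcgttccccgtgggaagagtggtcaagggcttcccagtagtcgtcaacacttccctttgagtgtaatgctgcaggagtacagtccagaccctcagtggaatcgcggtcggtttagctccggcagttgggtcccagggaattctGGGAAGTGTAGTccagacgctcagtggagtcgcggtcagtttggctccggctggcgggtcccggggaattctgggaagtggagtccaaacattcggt
ZNF862: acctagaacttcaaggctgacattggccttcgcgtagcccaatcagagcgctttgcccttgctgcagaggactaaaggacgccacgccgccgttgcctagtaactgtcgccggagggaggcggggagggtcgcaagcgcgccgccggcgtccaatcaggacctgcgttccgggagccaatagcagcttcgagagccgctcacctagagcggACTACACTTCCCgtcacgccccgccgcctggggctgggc
ZNF584: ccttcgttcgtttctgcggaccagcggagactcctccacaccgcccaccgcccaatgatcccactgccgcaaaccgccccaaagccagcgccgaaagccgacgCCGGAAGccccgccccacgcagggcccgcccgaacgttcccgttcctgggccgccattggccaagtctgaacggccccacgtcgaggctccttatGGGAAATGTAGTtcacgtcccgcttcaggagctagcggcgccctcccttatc
ZNF207: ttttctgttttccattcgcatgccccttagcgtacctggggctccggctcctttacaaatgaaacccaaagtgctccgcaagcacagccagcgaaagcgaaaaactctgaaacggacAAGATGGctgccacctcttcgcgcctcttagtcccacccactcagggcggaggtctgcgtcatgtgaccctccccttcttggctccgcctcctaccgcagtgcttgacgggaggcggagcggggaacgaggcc

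A match is a description of letters and does not show binding. The ETS core lies 55 and 21 bases before the start of ZNF558 and 147 bases before that of ZNF584. The ZNF143 and THAP11 element begins 97 bases before the start of ZNF224, 39 before that of ZNF862 and 52 before that of ZNF584. The YY1 core lies 133 bases before the start of ZNF207. Windows of 300 bases (250 before and 50 after the start) were listed for 116 of the 137 genes, 156 windows in all, and matches of different motifs may overlap.

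CCGGAAG was in 55 of the 156 windows (35.3%) and in 10.3% of all 35116 windows. ACTACANNTCCC was in 13 (8.33%) and in 1.75% of all windows, and was chosen after the windows had been read. Of the 17 KRAB genes with a listed window that were higher in either comparison (26 windows), 11 had the ETS core (64.7%). Of the 28 with a listed window that were not called (32 windows), 9 did (32.1%). By gene, the core was in 40.5% of the 116 ZNF genes with a window and in 12.2% of all genes. The higher genes had more windows per gene, and this difference was not tested. The ZNF143 and THAP11 element was in 3 of these 17 higher genes (17.6%) and in 4 of these 28 uncalled genes (14.3%). The 3 are ZNF224, ZNF862 and ZNF584, all printed above, so the printed windows overstate how common the element was. The GC box GGGCGG was in 103 windows (66.0%) against 45.0% of all, and the TATA box TATAAA in 4 (2.56%) against 11.5%. The median GC content was 64.3% in the ZNF windows and 58.7% in all windows. The other motifs searched were in 34.0% of the ZNF windows and 34.6% of all (CCAAT), 6.41% and 5.84% (AAGATGG), 8.97% and 7.26% (CACGTG), 11.5% and 7.98% (TGACGT), and 13.5% and 8.24% (TGCGCA).

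Of the genes without a KRAB box, 5 were higher in both comparisons. ZNF277, a C2H2 protein that binds the ribosomal protein uS5, read 15.5, 17 and 15.9 CPM in the controls, 21.3, 17.9 and 22.9 with CAF exosomes and 23.2, 22.4 and 21.2 with hOMF exosomes. All exosome libraries were above the controls, CAF replicate 2 by the least. Its log2 changes were 0.36 (SE 0.10, edgeR adjusted p = 0.0261) and 0.47 (SE 0.10, edgeR adjusted p = 0.00475). ZNF362 rose by 0.37 and 0.44. ZNF117 rose by 0.40 and 0.33, but it had whole counts in 0 libraries and shares exons with ERV3-1, an endogenous retroviral gene on the same strand. Without control replicate 3 its values were 0.27 (edgeR adjusted p = 0.0658) and 0.20 (edgeR adjusted p = 0.144), and neither passed. The other two, ZNF121 (0.34 and 0.29) and ZNF652 (0.27 and 0.27), were named after their values were seen, as were the next 4 genes. ZNF22 (0.30) and ZNF513 (0.33) passed with CAF exosomes, with hOMF values of 0.08 and 0.14, and ZNF322 (0.36) and ZNF692 (0.37) passed with hOMF exosomes, with CAF values of 0.23 and 0.26. The exons of ZNF513 overlap SNX17 on the opposite strand.

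**Figure D4:**
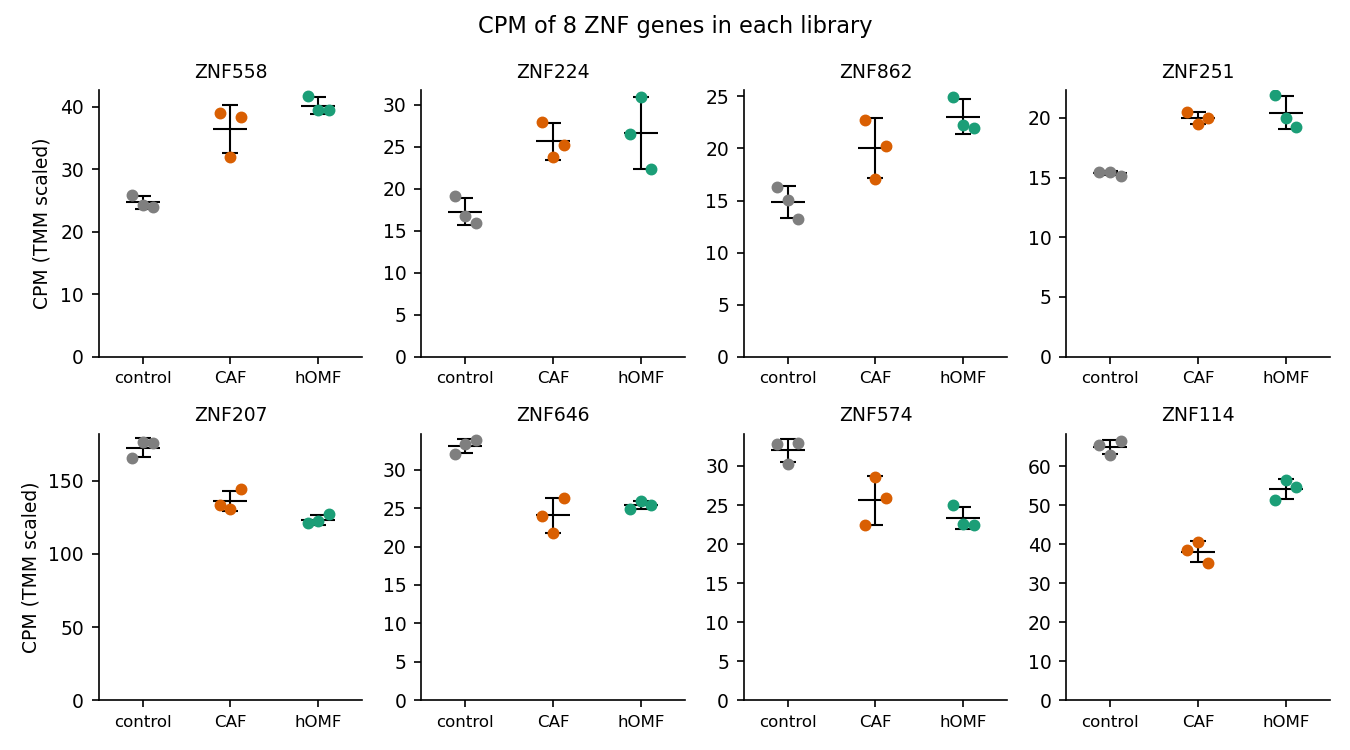
CPM of 8 ZNF genes in each of the 9 libraries, 1 point per library, with a bar at the mean of the 3 libraries of a group and the SD as error bar. The exosome libraries of ZNF558, ZNF224, ZNF862 and ZNF251 are above the controls, those of ZNF207, ZNF646, ZNF574 and ZNF114 are below, and ZNF114 is lowest with CAF exosomes.

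The lower genes lacked a KRAB box apart from ZNF114. ZNF207 (chr17:32350117-32381886) is the most abundant called gene. It read 165, 177 and 176 CPM in the controls, 133, 131 and 144 CPM with CAF exosomes and 121, 122 and 127 CPM with hOMF exosomes. The 3 groups did not overlap. The log2 change was -0.34 (SE 0.07, edgeR adjusted p = 0.00307) with CAF exosomes and -0.48 (SE 0.07, edgeR adjusted p = 0.000152) with hOMF exosomes.

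ZNF646 (chr16:31074422-31084196), with 30 fingers, read 32.1, 33.3 and 33.9 CPM in the controls, 24.0, 21.8 and 26.4 with CAF exosomes and 24.9, 25.9 and 25.4 with hOMF exosomes. Every exosome library was below every control. The log2 changes were -0.46 (SE 0.09, edgeR adjusted p = 0.00224) and -0.38 (SE 0.09, edgeR adjusted p = 0.00502). Its exons overlap PRSS53 on the opposite strand.

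ZNF574 and ZNF526, neighbours on chromosome 19 (chr19:42068477-42228201), were both lower with hOMF exosomes. ZNF574 read 32.8, 30.3 and 32.9 CPM in the controls, 22.4, 28.6 and 25.9 with CAF exosomes and 25, 22.6 and 22.5 with hOMF exosomes, and its groups did not overlap the controls. It fell by 0.32 and 0.46 on the log2 scale. ZNF526 fell by 0.46 with hOMF exosomes, and its CAF value of -0.17 did not pass the test. ZNF511 fell by 0.28 with CAF exosomes, with a hOMF value of -0.23 that did not pass, and its exons overlap TUBGCP2 and the joined gene ZNF511-PRAP1. With hOMF exosomes ZNF672 (-0.35), ZNF664 (-0.32), ZNF142 (-0.29) and ZNF592 (-0.25) were lower, with CAF values of -0.31, -0.21, -0.18 and -0.14 that did not pass. The hOMF and control libraries of these 4 genes did not overlap. ZNF672 was at -0.22 with hOMF exosomes without control replicate 3 and did not pass.

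**Figure D5:**
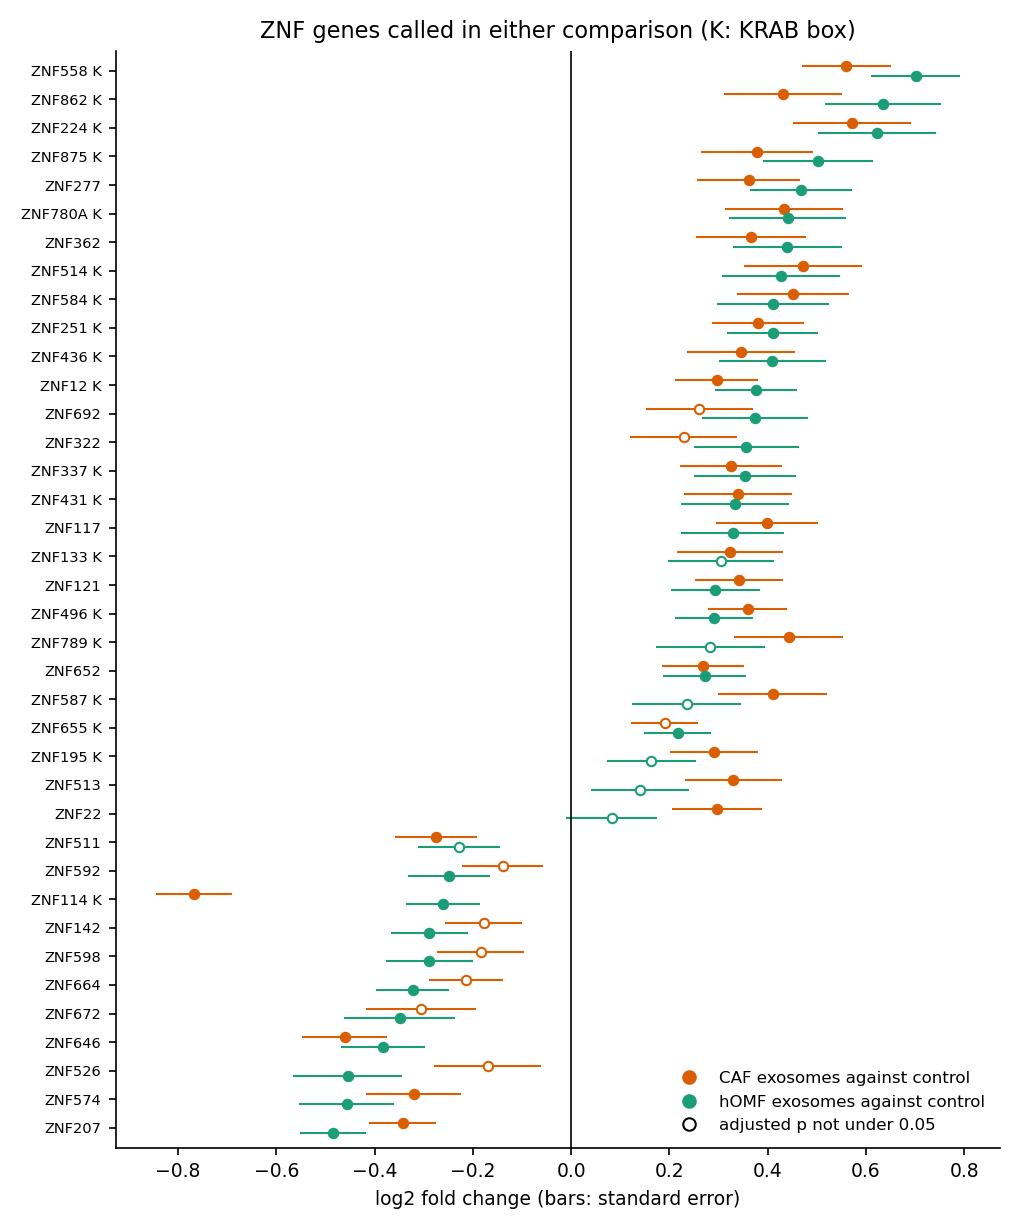
Log2 fold change with its SE for the 38 ZNF genes called in either comparison, ordered by the hOMF value, with filled points where the adjusted p was under 0.05 and K beside genes with a KRAB box. Of the 27 genes above 0, 18 carry a K, and of the 11 below 0 ZNF114 alone does.

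Most ZNF genes with known roles outside the KRAB class were not called, as holds for most genes tested. Of all genes, 18.2% were called with CAF exosomes and 23.2% with hOMF exosomes. Of 9 genes of mitosis and chromatin complexes, 0 were higher. With CAF exosomes 1 was lower (ZNF207, 11.1%), and with hOMF exosomes 2 were (ZNF207 and ZNF592, 22.2%). The lists are small, and their shares were not tested against that of all genes. ZNF592 forms a chromatin complex with ZNF687 and ZNF532, whose values were -0.19 and 0.06 with CAF exosomes and -0.12 and -0.09 with hOMF exosomes. ZNF143, an activator that binds promoters, was at -0.11 and -0.13. ZNF451, a SUMO ligase, ZNF644, a partner of the H3K9 methyltransferases G9a and GLP, ZNF148 and ZNF335 lay between -0.20 and 0.05 in both comparisons and were not called.

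Of 8 genes of RNA and ribosome biology, 0 were called with CAF exosomes and 1 (12.5%) was lower with hOMF exosomes. This was ZNF598, the ubiquitin ligase that marks collided ribosomes, at 139, 152 and 165 CPM in the controls, 121, 146 and 135 with CAF exosomes and 133, 128 and 112 with hOMF exosomes. The hOMF libraries were all below the controls, and the CAF libraries overlapped them. Its log2 change was -0.29 (SE 0.09, edgeR adjusted p = 0.0277) with hOMF exosomes and -0.18 (edgeR adjusted p = 0.16) with CAF exosomes. ZNF622 and ZNF593, of 60S ribosome assembly, ZNF638, ZNF326, ZNF346 and ZNF106, which bind RNA, and ZNF385A lay between -0.21 and 0.17. Of 4 genes tied to epithelial and carcinoma biology, 0 were called. ZNF217, a breast cancer oncogene, was at -0.13 and -0.09, ZNF185, an actin-binding protein of epithelia, at 0.03 and -0.16, ZNF281, linked to epithelial-mesenchymal transition, at -0.17 and -0.22, and ZNF395 at -0.16 and -0.10.

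ZNF114 was the one ZNF gene called between the 2 exosome groups, where 0.016% of all genes (2 of 12470) were called, 0.00802% higher and 0.00802% lower. It is a KRAB gene with 3 fingers on chromosome 19 (chr19:48270102-48287608), at 35 TPM and rank 18 of 137. It read 65.3, 62.8 and 66.4 CPM in the controls, 38.5, 40.5 and 35.2 CPM with CAF exosomes and 51.3, 56.4 and 54.7 CPM with hOMF exosomes. The 3 groups did not overlap, with CAF lowest and control highest. The log2 change with CAF exosomes was -0.77 (SE 0.08, edgeR adjusted p = 2.09e-05), the largest fall of the 137 genes in this comparison. With hOMF exosomes it was -0.26 (SE 0.08, edgeR adjusted p = 0.0204). CAF against hOMF libraries gave -0.51 (SE 0.08, edgeR adjusted p = 0.0439).

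The fall of ZNF114 with CAF exosomes kept its call in 21 of 21 alternative fits, with log2 changes from -0.81 to -0.70. The difference between CAF and hOMF exosomes kept its direction in all 21, from -0.55 to -0.45, and lost its call in 14, among them the removal of any 1 CAF or hOMF library, where adjusted p lay between 0.0625 and 0.43. ZNF114 had a whole count in 1 of the 9 libraries, and its exons overlap ZNF114-AS1 on the opposite strand, so reads of other genes may be part of its value. Over the 137 genes, CAF against hOMF exosomes gave 6 (4.38%) at an unadjusted p under 0.05, against 7.59% of all genes, and 9 (6.57%) whose groups did not overlap, against 13.7% of all genes. Their median was -0.00.

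Genes that act with KRAB proteins were called at a share near that of all genes with hOMF exosomes (24% against 23.2%) and at 28% against 18.2% with CAF exosomes. Of 25 genes encoding TRIM28 and its silencing partners, 4 were higher and 3 lower with CAF exosomes (median 0.00) and 3 higher and 3 lower with hOMF exosomes (median 0.01). TRIM28 was at 278 ± 7.45 CPM in the controls, 278 ± 17.6 CPM with CAF exosomes and 253 ± 7.22 CPM with hOMF exosomes (SD, n = 3). SETDB1 was at 0.05 and 0.21 and did not pass the test. The called genes were mostly DNA methylation genes: UHRF1, which guides maintenance methylation, fell by 0.74 and 1.18, DNMT1, the maintenance methyltransferase, fell by 0.45 and 0.55, and DNMT3A, a de novo methyltransferase, rose by 0.54 and 0.55. ATF7IP, the SETDB1 cofactor, rose by 0.27 and 0.39. Without control replicate 3 the CAF values of DNMT1 (-0.26), UHRF1 (-0.47) and ATF7IP (0.23) did not pass the test, and DNMT1 with hOMF exosomes was at -0.36 and did. On the authors' FPKM, with 1 added before taking logs, DNMT3A was at 0.15 in both comparisons and did not pass.

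Zinc finger genes of other families (ZBTB, ZSCAN, ZKSCAN, ZFP, KLF and SP) at the same mean count were compared. Of 46, 5 were higher and 5 lower with CAF exosomes (median -0.11), and 6 were higher and 11 lower with hOMF exosomes (median -0.13). The called shares were 21.7% and 37%, against 18.2% and 23.2% of all genes. KLF6 fell by 0.61 and 0.80 and ZBTB38, which binds methylated DNA, fell by 0.58 and 0.52, while ZBTB25 rose by 0.63 and 0.76.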

How the data were processed

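The authors deposited 1 table with, per the file headers, expected counts, FPKM and TPM for each of 9 libraries. RSEM 1.2.8 and Bowtie2 2.2.5 made them, per the submitters' processing notes, which list a mouse build beside human identifiers. Which build lies behind the values is therefore uncertain. Per the labels' protocols, poly(A) RNA was selected and the second strand marked with dUTP. The expected counts deposited by the authors, 90.5% to 92.0% of them whole per library (tolerance 0.001), were rounded. The FPKM values deposited by the authors entered only an alternative test (limma), and the authors' TPM values describe levels. 0 columns were left without a sample.

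Genes passed filterByExpr (minimum count 10, minimum total 15), libraries were scaled by TMM, and edgeR's quasi-likelihood test (two-sided, group as the only term, 6 residual degrees of freedom) was adjusted over all 12470 genes at 0.05. SE is the absolute log2 fold change divided by the square root of F. KRAB boxes were called with a profile of 44 residues from 257 sequences (pyhmmer, E value 0.001) in any GENCODE 29 coding sequence, and fingers by cysteine and histidine spacing. Positions come from GENCODE 29 on GRCh38, joined by NCBI gene identifier. This replaced RefSeq proteins, which were not used here. Software: edgeR 4.0.16, DESeq2 1.42.0 and limma 3.58.1 in R 4.3.3, and pyhmmer 0.12.3.

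The ZNF genes and all lists were chosen with earlier results of these data known, ZNF114 among them, so they give no independent support. Named genes were, per comparison, up to 10 called genes with the largest rise and 10 with the largest fall whose groups did not overlap, the 5 with the highest TPM, ZNF114, the threshold neighbours, the role lists, and up to 3 genes of each other list by p. Others (ZNF121, ZNF652 and further list members) were chosen after their values were seen. Alternatives were other scalings, filters, tools, GC and length correction, a replicate block, other count minimums and leaving out each library. The counts by KRAB class under them were added after the data were seen.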

Additional observations from a re-analysis of the deposited data

Results flagged for a closer look

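ZNF114 differed between the 2 exosome treatments in a direct test of CAF against hOMF libraries, which is the difference between their 2 changes from the shared controls. The log2 change was -0.506763, or -0.51 with SE 0.08 (edgeR adjusted p = 0.0439), with all 3 CAF libraries below all 3 hOMF libraries. Over 21 alternatives the adjusted p ranged from 8.7e-05 to 0.43.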

How the results depend on the processing

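Over 21 alternative fits, 7 of the 29 ZNF calls with CAF exosomes and 12 of the 31 with hOMF exosomes were kept in all, and 0 changed direction in any. Without control replicate 3, 21 and 17 of them were lost. Leaving out 1 library at a time gave 6 to 24 higher and 4 to 6 lower ZNF genes with CAF exosomes (median -0.00042 to 0.055), 8 to 22 higher and 5 to 13 lower with hOMF exosomes (median 0.03 to 0.06), and 0 to 1 lower between the exosome groups (median -0.030 to 0.0029). The correction for GC content and length gave 18 lower with CAF exosomes and 21 with hOMF exosomes (median 0.011), and held 29 of 29 and 28 of 31 of the calls. With the replicate block added to it there were 20 and 22 lower (hOMF median 0.014). Without TMM factors the medians were 0.053 and 0.099, with 6 lower for hOMF, and 0 lower and a median of -0.028 between the exosome groups. Over all genes this gave 1425 higher and 832 lower with CAF exosomes and 2006 and 989 with hOMF exosomes. With limma on log2(FPKM + 0.1) the medians were 0.055 and 0.107, with 6 lower for hOMF, and on log2(FPKM + 1) 6 lower and a median of 0.095, with 0 lower between the exosome groups in both. At 0 there too were limma-voom, the 6 compared libraries alone and the replicate block. With a mean count of at least 300, which left 76 genes, 10 were higher in each comparison with control. DESeq2 gave 16 higher in each. For fits other than that without TMM factors, calls over all genes are not listed in this section. Apart from the smaller sets of samples and genes, the cause was not tested.

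Replicate numbers recur in all groups but same-numbered libraries did not deviate together (correlations -0.154 to 0.14, and not every library correlated best with its own number). The replicate block gave 21 higher and 6 lower ZNF genes with CAF exosomes and 20 higher and 10 lower with hOMF exosomes. The pairing is a shared number only. With 3 libraries a group and a median SD of 0.127, changes that did not pass the test are not shown to be absent.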
